A study of Mus musculus with 4 samples.

Results

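The 76 cytosolic ribosomal protein genes described here are those of the 24411 genes in the deposited tables whose symbol is Rpl or Rps followed by a number, with an optional a, x or y, together with Rplp0, Rplp1, Rplp2 and Rpsa. They comprise 46 genes of the large subunit and 30 of the small subunit. RNA was sequenced from hematopoietic stem cells of C57BL/6 mice. Bone marrow of Dis3fl/fl;Mx-Cre mice (the Dis3-/- group, 2 libraries) or of Dis3fl/fl mice without Cre (the wild-type group, 2 libraries) was grafted into lethally irradiated CD45.1 recipients, so both groups carry the floxed Dis3 allele. Recipients were given 300 µg of pIpC, a double-stranded RNA analog that switches on the interferon-responsive Mx promoter, on days 0 and 2, beginning 4 weeks after the graft, and cells were sorted on day 4. The protocol text is the same for both groups, and the pIpC given to wild-type recipients is read from it. Each library was made from 100 cells sorted as Lineage-EPCR+CD150+CD48-, by RamDA-seq, which primes total RNA along its whole length. The labels give 2 mice and no ages, and do not say whether the 2 libraries of a genotype came from separate recipients, so the p-values measure the spread between these libraries, which may be technical. The Mx promoter responds to interferon in many cell types, and cells of the irradiated hosts may remain in the marrow.

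The cytosolic ribosome pairs a small subunit, which reads the mRNA, with a large subunit, which joins amino acids, and nearly every ribosomal protein is present once in each ribosome. Mammalian ribosomal protein mRNAs begin with a run of pyrimidines, the 5′ terminal oligopyrimidine or TOP motif, through which mTOR signalling and the RNA-binding protein LARP1 control their translation and stability. Hematopoietic stem cells keep a low rate of protein synthesis, and loss of 1 copy of some of these genes causes Diamond-Blackfan anemia in humans. DIS3 is the catalytic nuclease of the RNA exosome, which trims the precursor of 5.8S ribosomal RNA and degrades faulty nuclear RNA. Each ribosomal protein gene has many processed copies elsewhere in the mouse genome, which lack introns and keep most of the coding sequence.

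For 4 members, the row of such a copy held most of the reads on the member's and the copy's rows together. Which gene those reads came from was not tested. In the GENCODE M21 annotation, 609 other genes had a transcript that matched 1 of 72 members over at least 200 bases at 95% identity or more. Of these copies, 14 have rows in the deposited tables. The sequences below show how little separates 3 members from the copy whose row held more reads than their own. Each stretch is 60 bases of coding sequence from GRCm38, 5′ to 3′, and the capital marks the single base that differs in it. Positions are counted from 1 at the A of the start codon.
Rpl26, coding bases 147 to 206, gene at chr11:68901566-68904534: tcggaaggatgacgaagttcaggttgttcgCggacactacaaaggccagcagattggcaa
Gm15772, the same coding bases, gene at chr5:3236390-3236928: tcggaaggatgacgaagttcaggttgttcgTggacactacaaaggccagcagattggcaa
Rpl30, coding bases 66 to 125, gene at chr15:34440505-34443276: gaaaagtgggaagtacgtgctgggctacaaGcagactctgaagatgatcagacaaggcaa
Gm12191, the same coding bases, gene at chr11:49678620-49679143: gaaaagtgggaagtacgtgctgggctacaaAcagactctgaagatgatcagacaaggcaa
Rpl34, coding bases 102 to 161, gene at chr3:130726827-130730398: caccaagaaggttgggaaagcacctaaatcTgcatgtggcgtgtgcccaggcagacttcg
Rpl34-ps1, the same coding bases, gene at chr6:71124589-71125001: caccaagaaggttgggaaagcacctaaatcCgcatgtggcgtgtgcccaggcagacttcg

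Over the whole coding sequence, Rpl26 and Gm15772 differ by C177T and T288C in 438 bases, Rpl30 and Gm12191 by G96A in 348 bases, and Rpl34 and Rpl34-ps1 by T132C and C318G in 354 bases, with the member's base first. The 255 coding bases of Rps27 on chromosome 3 and of its retrogene Rps27rt on chromosome 9 hold 0 differences, and the first 60 of them, shared by both genes, read as follows.
Rps27 and Rps27rt, coding bases 1 to 60: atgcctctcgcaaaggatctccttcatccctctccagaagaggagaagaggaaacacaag

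Rps27, a zinc-finger protein of the small subunit, was listed with 5.63 and 5.61 expected counts in the Dis3-/- libraries and with 200.1 and 5.67 in the wild-type libraries, while Rps27rt held 3151 and 3106 in Dis3-/- and 3793 and 3799 in wild type. Rpl26, a protein near the exit of the peptide tunnel, was listed at 0 in both Dis3-/- libraries and at 0 and 16.8 counts in the wild-type libraries, while Gm15772 held 1533 and 1499 counts in Dis3-/- and 1667 and 1594 in wild type. Neither member passed the filter on low counts, as each was above the minimum count of 10 in a single library. That wild-type library is a different one for each member. Rpl30 was given 268 and 355 counts in Dis3-/- and 342 and 228 in wild type, against 2354 and 2563 in Dis3-/- and 2566 and 2587 in wild type for Gm12191. Rpl34 was given 187 and 215 counts in Dis3-/- and 166 and 116 in wild type, against 2173 and 1980 in Dis3-/- and 2331 and 2248 in wild type for Rpl34-ps1. The sum of member and copy was a whole number, within 0.005, in all 4 libraries for each of these 4 pairs, although the separate values mostly were not. Levels of these 4 members in the tables are therefore levels of the share of reads assigned to the member's own row.

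**Figure D1:**
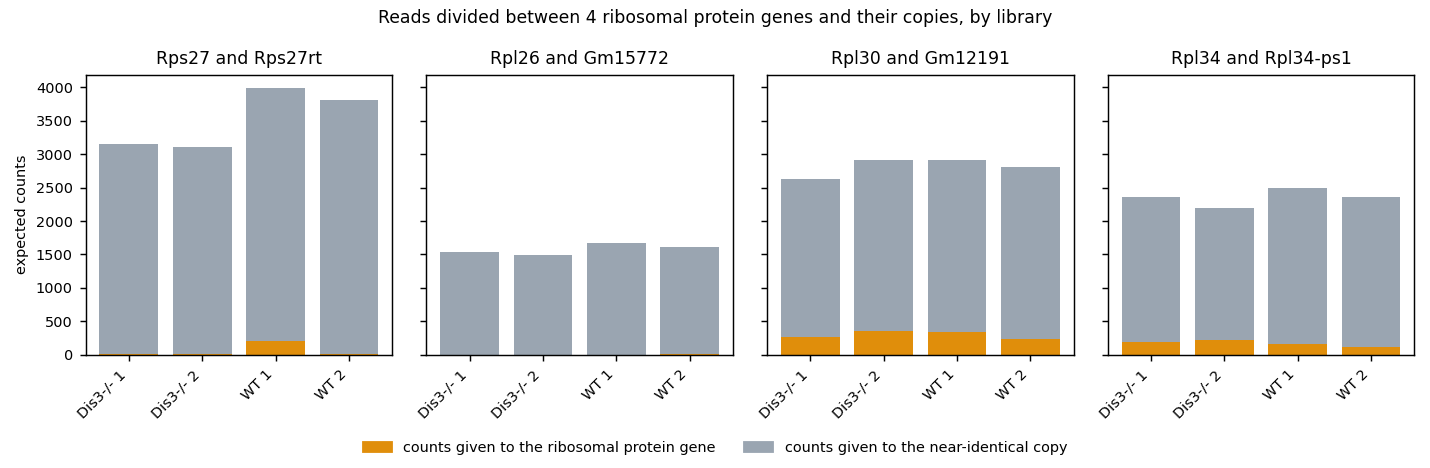
Expected counts of 4 ribosomal protein genes (orange) stacked with those of their near-identical copies (grey), 1 bar for each library, with the 2 Dis3-/- libraries left of the 2 wild-type (WT) libraries. The copy holds most of the reads in every library, and Rpl26 is at 0 in 3 of the 4.

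The libraries held 6085367 and 6442740 expected counts in Dis3-/- and 6818535 and 6251761 in wild type, and 14785 to 14874 genes were above 0. Dis3 was listed with 140 and 193 counts in Dis3-/- and 388 and 335 in wild type (26.9 ± 4.68 CPM in Dis3-/- and 54.5 ± 1.91 CPM in wild type, SD, n = 2 each; log2 fold change -1.02 ± 0.14 SE, edgeR adjusted p = 2.58e-04). The counts are per gene and do not show which exons the remaining reads cover. CPM here are counts scaled to a common library size after TMM normalization. The sort markers Procr, which encodes EPCR, and Slamf1, which encodes CD150, were present in every library. The 9 stem cell markers summed to 2064 and 2047 CPM in Dis3-/- and 3016 and 2703 CPM in wild type, with 4 lower and 0 higher. Markers of other cells also summed lower in Dis3-/-, as with 10 erythroid genes (670 and 562 CPM in Dis3-/-, 705 and 776 CPM in wild type, Hba-a2 and Hbb-bs at 0) and 9 granulocyte and monocyte genes (34.7 and 34.4 CPM in Dis3-/-, 62.5 and 64.0 CPM in wild type, Ctsg and Ly6c2 at 0). Car2 made up most of the erythroid sum (497 and 436 CPM in Dis3-/-, 543 and 591 CPM in wild type). Of the 5 erythroid genes tested, 4 had a fold change below 0 on the log2 scale. The 1 above 0 was Hbb-bt (43.4 and 31.3 CPM in Dis3-/-, 27.7 and 29.5 CPM in wild type). Of the 3 granulocyte and monocyte genes tested, 2 were below 0 and 1, S100a9, was above. The 10 lymphoid genes summed to 127 and 107 CPM in Dis3-/- and 134 and 162 CPM in wild type, with Ms4a1, Cd3e and Il7r at 0. Nkg7 was the largest part of the lymphoid sum and overlapped (81.6 and 64.1 CPM in Dis3-/-, 60.5 and 85.0 CPM in wild type). Of the 3 lymphoid genes tested, only Flt3 passed, as lower (33.7 and 28.9 CPM in Dis3-/-, 56.9 and 59.2 CPM in wild type, edgeR adjusted p = 3.14e-04). The 6 endothelial and stromal genes summed to 83.3 and 76.1 CPM in Dis3-/- and 148 and 139 CPM in wild type, and the 5 mast cell and basophil genes to 5.72 and 1.72 CPM in Dis3-/- and 7.35 and 12.9 CPM in wild type, with Ms4a2 and Mcpt8 at 0. Pecam1 alone gave 74.7 and 65.0 CPM of the endothelial and stromal sum in Dis3-/- and 110 and 112 CPM in wild type. The 7 megakaryocyte genes overlapped, with 168 and 183 CPM in Dis3-/- and 168 and 273 CPM in wild type. The part of these shifts in the ribosomal protein values was not tested, and in pools of sorted cells fewer cells of a type and less RNA per cell cannot be told apart.

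The 76 genes together took 5.52% and 5.32% of the expected counts in the Dis3-/- libraries and 5.23% and 5.45% in the wild-type libraries. Of the summed TPM, which are scaled by transcript length, they took 20.3% and 19.7% in Dis3-/- and 19.9% and 20.7% in wild type. The genotypes overlapped on both measures. The mean share in Dis3-/- minus that in wild type was 0.0797 percentage points of counts and -0.323 percentage points of TPM, and this difference was not tested.

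Levels spread over a wide range across the genes. By mean TPM over the 4 libraries, 61 members lay between 1000 and 5000, 5 lay above 5000 and 10 below 1000, with a median of 2516. Rps12, a small-subunit protein known in Drosophila for a role in cell competition, was the highest at 11909 and 11445 TPM in Dis3-/- and 10726 and 11488 TPM in wild type, and its lowest library stood above every library of the next gene. Rpl23a, which lies at the exit of the peptide tunnel, had 7020 and 7077 TPM in Dis3-/- and 7015 and 7157 TPM in wild type. Rpl41, the smallest and most basic ribosomal protein, had 7785 and 7468 TPM in Dis3-/- and 5721 and 5940 TPM in wild type, so that it stood above Rpl23a in both Dis3-/- libraries and below it in both wild-type libraries. Rpl32 followed with 6294 and 5932 TPM in Dis3-/- and 6656 and 7107 TPM in wild type, and its range overlaps that of Rpl41.

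At the low end, the rows of Rpl26 and Rps27 averaged 3.84 and 83.2 TPM over the 4 libraries, and those of Rpl34 and Rpl30 averaged 160 and 243 TPM, without the reads on their copies. Rps15a had 212 and 199 TPM in Dis3-/- and 230 and 222 TPM in wild type, with 14.1 reads for each TPM against a median of 1.56 over the members, so the transcript length behind its TPM was long. Rpl22, an RNA-binding protein needed for lymphocyte development in mice, had 413 and 395 TPM in Dis3-/- and 425 and 461 TPM in wild type, with 5.71 reads per TPM. Across the 74 tested members the mean levels of the genotypes ran in parallel, with Pearson's r = 0.993 and Spearman's rho = 0.992 as a description of genes that share libraries and transcript lengths.

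**Figure D2:**
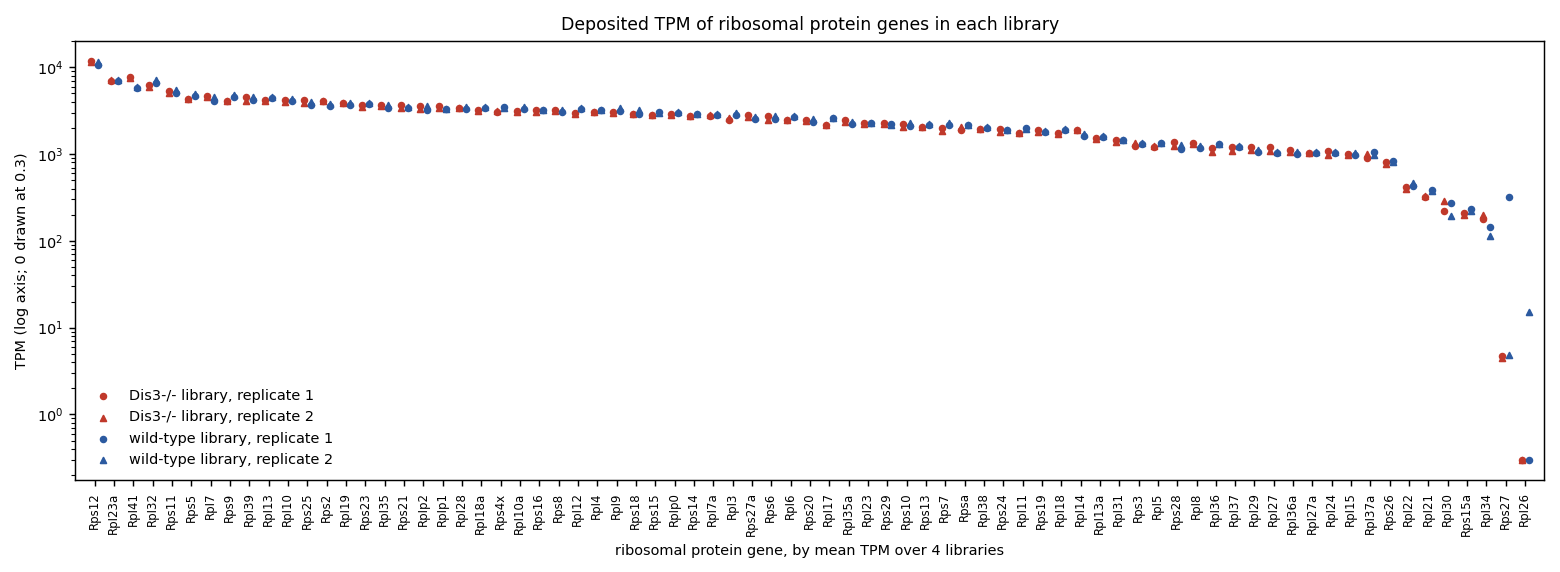
Deposited TPM (log axis) of 75 of the 76 ribosomal protein genes, ordered by mean TPM over the 4 libraries, with the Dis3-/- libraries (red) left of the wild-type libraries (blue) for each gene. The genotypes sit together at nearly every gene between Rps12 and Rps26, and Rpl41 is higher in both Dis3-/- libraries. The genes at the right end include those whose copies hold more reads than their own rows.

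Between genotypes, most ribosomal protein mRNAs differed little. Of the 74 members that passed the filter on low counts, 8 were higher in Dis3-/- and 0 were lower (10.8%; edgeR's quasi-likelihood test, Benjamini-Hochberg adjusted p under 0.05 over 12244 genes). Over all genes tested 23% passed in either direction, 12.7% higher and 10.2% lower, so the share of members called higher was close to the background. At an unadjusted p under 0.05, 15 members were higher and 1 was lower. The share of all genes at that threshold is not given here, so this split has no background beside it. The median log2 fold change was 0.0666, against -0.0027 over all genes, and 51 members lay above 0 and 23 below. The fold changes of the members had an SD of 0.130, against 0.572 over all genes. The median SE was 0.0670 for members and 0.155 for all genes. Tested members held a median of 3861 expected counts in a library. Their spread and share of calls were not compared with those of genes of like counts. The 95% interval lay within 0.5 either side of 0, a 1.41-fold change, for 71 of the 74 members and for 35.4% of all genes, and within 0.25 for 45 members. In CPM, both Dis3-/- libraries exceeded both wild-type libraries for 30 members (40.5%, background 31.9%), and both lay below for 8 (10.8%, background 30.5%), while 36 overlapped.

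The count of called members depended on single libraries. Without Dis3-/- replicate 1 there were 5 calls, of which Rps27 was lower. Without wild-type replicate 1 there were 4, of which Rpl26 was lower. Without Dis3-/- replicate 2 there were 14, again with Rps27 as the lower one. DESeq2 called 5, all higher, and edgeR without the filter on low counts called 13, of which Rpl17, Rpl26 and Rps27 were lower. The median ranged over 0.0145 to 0.111 in these fits. The shares of all genes called in these fits are not given here, so their counts have no background beside them. The lower calls of Rps27 and Rpl26 rest on rows with 1 high wild-type library. In fits that left out a library, the filter on low counts needed its minimum in only 1 library, so such rows entered the test. Rps27 had 200.1 counts in wild-type replicate 1 and 5.61 to 5.67 elsewhere. Rpl26 had 16.8 counts in wild-type replicate 2 and 0 elsewhere. On log2(TPM + 1) values with limma, 4 members of 75 were called, 2 in each direction (background 16.1%), and the member median was -0.0381. The median of all genes was lower on that scale by 0.103 than in the edgeR fit, over 12998 and 12244 genes kept by different filters. Relative to the median of all genes the members were at 0.0678, against 0.0693 in the edgeR fit. Directions within about 0.1 of 0 therefore depend on the scaling.

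**Figure D3:**
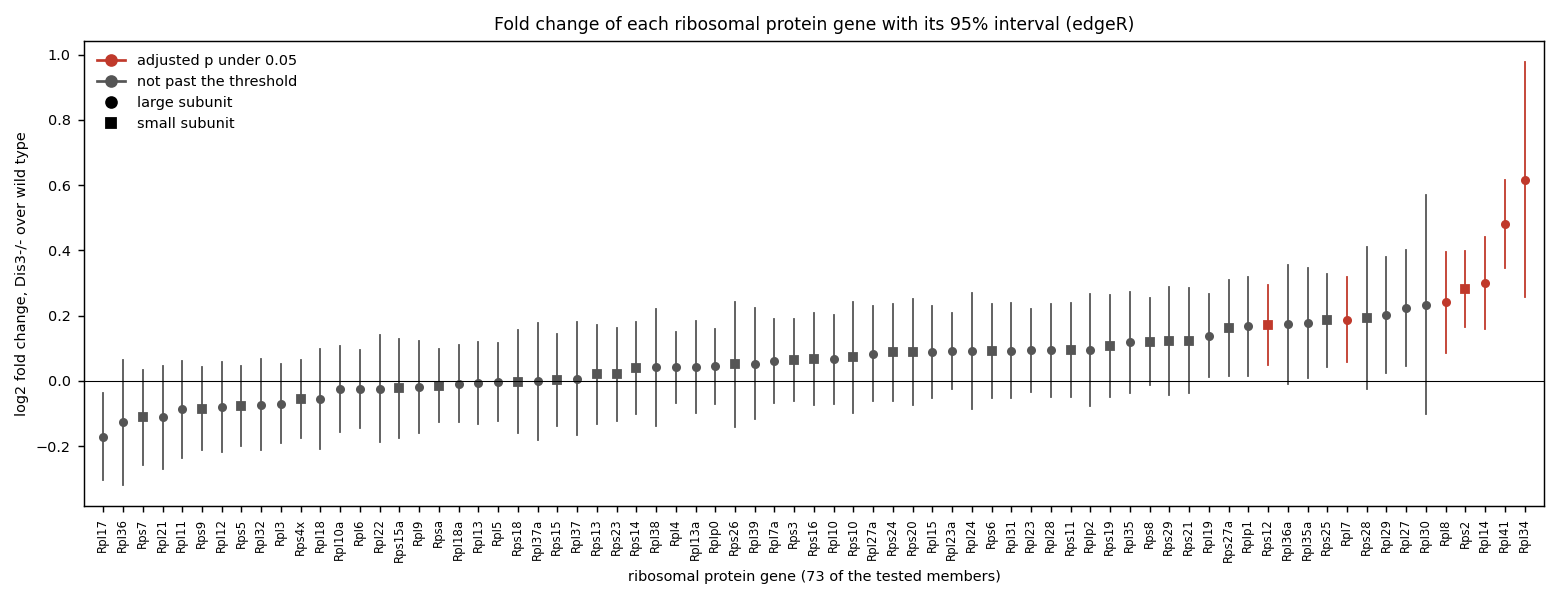
Log2 fold change, Dis3-/- over wild type, of 73 of the 74 tested ribosomal protein genes in rising order, with 95% intervals from edgeR, circles for the large and squares for the small subunit. The 7 genes in red passed the threshold, all above 0, and the remaining values lie between -0.17 and 0.23.

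Rpl41 was the member with the firmest difference. It had 1120 and 1037 CPM in Dis3-/- and 753 and 791 CPM in wild type, so the genotypes did not overlap. It was higher by 0.48 ± 0.06 on the log2 scale (SE, 2 libraries each; edgeR adjusted p = 1.35e-04) and kept its call under 12 of 13 alternative settings, the exception being limma on unfiltered TPM (adjusted p = 0.0632). Its gene lies at chr10:128548110-128549168 in RefSeq GRCm38.p6.

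A further 4 genes of the large subunit passed the threshold. Rpl14 had 699 and 677 CPM in Dis3-/- and 542 and 576 CPM in wild type (log2 fold change 0.30 ± 0.07 SE, edgeR adjusted p = 4.89e-03), and the Dis3-/- libraries were the higher ones throughout. It lost its call without wild-type replicate 1 (adjusted p = 0.0502) and on log2(TPM + 1) values (limma adjusted p = 0.0551). Of the reads on its row and that of its copy Rpl14-ps1, 90.6% and 92.5% in Dis3-/- and 90.3% and 92.4% in wild type were on its own row, and with the copy's reads added the log2 fold change was 0.30 (adjusted p = 4.49e-03). Rpl8, whose protein lies near the peptidyl transferase centre, had 455 and 427 CPM in Dis3-/- and 363 and 383 CPM in wild type (0.24 ± 0.07, edgeR adjusted p = 0.0269). Rpl7, which binds the region of the 5S ribosomal RNA, had 1713 and 1616 CPM in Dis3-/- and 1383 and 1540 CPM in wild type (0.19 ± 0.06, edgeR adjusted p = 0.0401). Neither Rpl8 nor Rpl7 kept its call without Dis3-/- replicate 1 (edgeR adjusted p = 0.110 and 0.125), without wild-type replicate 1 (0.167 and 0.310) or on TPM, and Rpl7 lost it also with DESeq2 (0.0689) and with unscaled library totals (0.0666).

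Rpl34 had the highest fold change among the members. Its row held 7.9% and 9.8% of the reads on it and its copy in Dis3-/- and 6.7% and 4.9% in wild type. A sum of both rows therefore mostly follows the copy. Whether the division of reads between the rows set the fold change of Rpl34 was not tested. Rpl34 had 31.5 and 33.6 CPM in Dis3-/- and 23.9 and 18.4 CPM in wild type (0.62 ± 0.17, edgeR adjusted p = 0.0174). The copy Rpl34-ps1 had 366 and 310 CPM in Dis3-/- and 336 and 357 CPM in wild type (-0.04 ± 0.09, edgeR adjusted p = 0.801). With both rows summed the log2 fold change was 0.01 (edgeR adjusted p = 0.946), and without Dis3-/- replicate 2 or wild-type replicate 2, and with DESeq2, the call was lost too (adjusted p = 0.0720, 0.124 and 0.0772).

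Of the small-subunit genes that passed, Rps2, a protein at the entry channel of the mRNA, had 1654 and 1607 CPM in Dis3-/- and 1303 and 1378 CPM in wild type (0.28 ± 0.05, edgeR adjusted p = 2.26e-03), and lost its call only on TPM among the alternatives run (limma adjusted p = 0.0725 on log2(TPM + 1)). Rps12 had 2096 and 1948 CPM in Dis3-/- and 1724 and 1871 CPM in wild type (0.17 ± 0.06, edgeR adjusted p = 0.0464). The genotypes did not overlap in CPM for either gene. Rps12 lost its call without Dis3-/- replicate 1 (edgeR adjusted p = 0.211), without wild-type replicate 1 (0.287) and on TPM, and also with DESeq2 (0.0918) and with unscaled library totals (0.0777).

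Adding the reads of 12 copies to 11 members, an alternative chosen after the data were seen, made all 76 members testable. Then 7 were higher and 1 was lower (background 23% of 12237 genes), 7 of the 8 genes called without it were called again, and the median was 0.0574. The lower gene was Rps27, with a log2 fold change of -0.21 ± 0.07 (edgeR adjusted p = 0.0420), where Rps27rt alone was at -0.18 ± 0.07 (adjusted p = 0.0994). Rpl26 with Gm15772 was at -0.01 (adjusted p = 0.944), and Rpl30 with Gm12191 at 0.05 (adjusted p = 0.639), against 0.23 ± 0.16 for Rpl30 on its own row (adjusted p = 0.312).

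At the other end of the order, Rpl17 had 635 and 629 CPM in Dis3-/- and 702 and 720 CPM in wild type. The groups did not overlap, and Rpl17 was at -0.17 ± 0.06 (edgeR adjusted p = 0.0630). The gene passed the threshold as lower with unscaled library totals (adjusted p = 0.0167), with no filter on low counts (0.0454) and on log2(TPM + 1) (0.0206). Rpl36 was at -0.13 and Rps7 at -0.11, neither past the threshold. The highest values among the members not called, beside Rpl30, were those of Rpl27 (0.22, edgeR adjusted p = 0.0676) and Rpl29 (0.20, adjusted p = 0.0953), and both passed without Dis3-/- replicate 2.

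Of the 13 tested genes on a list of 14 members with a known special role, 1 passed (7.69%, background 23%), which was Rpl41. Rpl5 and Rpl11, which with 5S ribosomal RNA form the particle that binds Mdm2 and stabilizes p53, had values close between genotypes. Rpl5 had 1065 and 1068 CPM in Dis3-/- and 1055 and 1083 CPM in wild type, with a log2 fold change of -0.00 and a 95% interval of -0.12 to 0.12. Rpl11 had 366 and 360 CPM in Dis3-/- and 386 and 385 CPM in wild type (-0.09, interval -0.24 to 0.06, edgeR adjusted p = 0.397), and its Dis3-/- libraries were the lower pair. The stalk proteins Rplp0, Rplp1 and Rplp2, which recruit elongation factors, were at 0.04, 0.17 and 0.10, and of these Rplp1 was the nearest to the threshold (edgeR adjusted p = 0.105). On log2(TPM + 1), Rplp0 changed sign to -0.06.

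Among the genes tied to inherited or acquired blood disease in humans, Rps19, the gene most often mutated in Diamond-Blackfan anemia, had 428 and 395 CPM in Dis3-/- and 378 and 387 CPM in wild type (0.11, interval -0.05 to 0.26). Rps14, which lies in the region lost in 5q- syndrome, had 592 and 562 CPM in Dis3-/- and 556 and 569 CPM in wild type (0.04, interval -0.10 to 0.18), with overlapping groups. Rps6, the substrate of S6 kinase, was at 0.09, Rpsa, also known as the laminin receptor, at -0.01, Rpl10, which joins the large subunit last, at 0.07, Rpl3, near the peptidyl transferase centre, at -0.07, and Rpl22 at -0.02. None of the genes named in this paragraph passed the threshold in the edgeR fit. Other members tied to such disease were not gathered as a list. Rps14, Rps6 and Rpl10 turned negative on TPM.

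The calls fell in both subunits. Of the 45 tested large-subunit genes 5 were higher (11.1%), with a median of 0.0615, and of the 29 small-subunit genes 3 were higher (10.3%), with a median of 0.0717. Over all genes tested, 12.7% were higher. Within the gene bounds of 29 members, called hosts here, lie 56 annotated snoRNAs on the same strand, counting the related class of scaRNAs. Whether each lies in an intron was not checked. Small RNAs of the snoRNA class guide modification of ribosomal RNA, and their ends are made by exonucleases after splicing. Of the 29 hosts 2 were higher (Rps2 and Rps12, 6.90%), with a median of 0.0532, and of the 45 tested members without one 6 were higher (13.3%), with a median of 0.0913. The difference between these groups was not tested. The snoRNAs were barely measured: 31 have rows, 13 of these were at 0 in every library, the highest value was 11 counts and 0 could be tested. They summed to 25 and 37 counts in Dis3-/- and 38 and 43 in wild type.

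Short pyrimidine runs were looked for in the DNA around the annotated start site, on both sides of it, so that a match can lie in bases that are not part of the mRNA. RefSeq windows were found for 56 of the 76 members. A 60-base window, 30 bases either side of the start, was searched, on the sense strand alone, for short pyrimidine runs that may overlap one another. CTTTT was present in 12.5% of the member windows and 6.34% of all windows. CTTTC was present in 33.9% of the member windows and 7.78% of all windows. CTTCC was present in 33.9% of the member windows and 12.7% of all windows. At least 1 of the motifs was present in 35 of the 56 (62.5%), in 23.9% of 27025 windows of all genes and in 25 of 68 (36.8%) windows of mitochondrial ribosomal protein genes. The windows below (GRCm38.p6, 5′ to 3′ on the gene's strand, motif in capitals) show 2 members with adjoining motifs at the start, and Rps12 and Rpl41, the called members with the highest level and the firmest difference.
Rps10, chr17:27635215-27635274, minus strand: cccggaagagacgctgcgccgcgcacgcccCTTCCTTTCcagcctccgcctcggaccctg
Rplp2, chr7:141447621-141447680, plus strand: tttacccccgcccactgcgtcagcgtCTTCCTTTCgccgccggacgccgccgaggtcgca
Rps12, chr10:23787180-23787239, minus strand: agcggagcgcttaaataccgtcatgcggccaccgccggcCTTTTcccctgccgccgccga
Rpl41, chr10:128549139-128549198, minus strand: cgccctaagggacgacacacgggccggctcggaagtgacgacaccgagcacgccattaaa

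Annotated starts can lie some bases away from the used ones, and a window without these letters says only that they are not in it. Of the 33 tested members with a motif 2 were higher, with a median log2 fold change of 0.0506, and of the 21 without one 3 were higher, with a median of 0.0668. Over all genes tested, 12.7% were higher, and the difference between these groups was not tested. The 2 with a motif were Rps12 and Rpl34, and Rpl34 lost its call with the reads of its copy added.

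Several related genes outside the symbol rule were higher in Dis3-/-. 3 of the 4 tested paralogs were higher, against 12.7% of all genes tested. Rps27l, a paralog of Rps27 whose human gene is a p53 target, had 70.2 and 65.7 CPM in Dis3-/- and 36.2 and 34.5 CPM in wild type (0.94 ± 0.12, edgeR adjusted p = 1.04e-04). Rpl36al, the paralog of Rpl36a, was at 0.54 ± 0.10 (adjusted p = 1.37e-03), and Rpl7l1, which acts in assembly of the large subunit, at 0.43 ± 0.11 (adjusted p = 0.0105). Rpl22l1, the paralog of Rpl22, was at 0.25 ± 0.10 (adjusted p = 0.0952). The tissue-restricted paralogs Rpl39l and Rpl3l were below the filter, and Rpl10l was at 0 in every library. Fau (-0.13) and Rps3a1 (0.06), subunit genes that the rule leaves out for their names, did not pass.

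Set beside lists of neighbouring function, the cytosolic members had the lowest median of the 5. Among all genes tested, 23% passed in either direction and 12.7% were higher. Of 77 mitochondrial ribosomal protein genes 20 were higher and 0 lower (26.0% called, median 0.419), with Mrpl17 at 0.71, Mrpl18 at 0.81 and Mrpl42 at 0.78. Of 34 ribosomal protein chaperones and assembly factors 10 were higher and 1 lower (32.4% called, median 0.265). Bop1, a factor of large-subunit assembly, was at 0.61 ± 0.11 (edgeR adjusted p = 1.24e-03) and Mdn1, the ATPase that removes assembly factors, at 0.29 ± 0.06. The lower gene was Gltscr2, known in yeast as Nop53, an adaptor that brings the exosome to the pre-60S particle, at -0.49 ± 0.08 (edgeR adjusted p = 6.96e-04). Of 15 other genes whose mRNAs carry the TOP motif 4 were higher (26.7% called, median 0.0793), among them Nap1l1 at 0.56, Eef1g at 0.29 and Hnrnpa1 at 0.27. Of 8 elongation factor genes, some of which are also on the TOP list, 3 were higher (37.5% called, median 0.255), with Eif5a at 0.58. With DESeq2 the mitochondrial count was 9, without Dis3-/- replicate 1 it was 10 and without wild-type replicate 2 it was 11. The assembly factors had 7 calls with DESeq2, 2 on log2(TPM + 1) and 6 without wild-type replicate 2, and the other TOP genes had 1 call on log2(TPM + 1). Background on log2(TPM + 1) was 16.1%, and the shares of all genes called under the other settings are not given here. The differences between these lists were not tested.

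**Figure D4:**
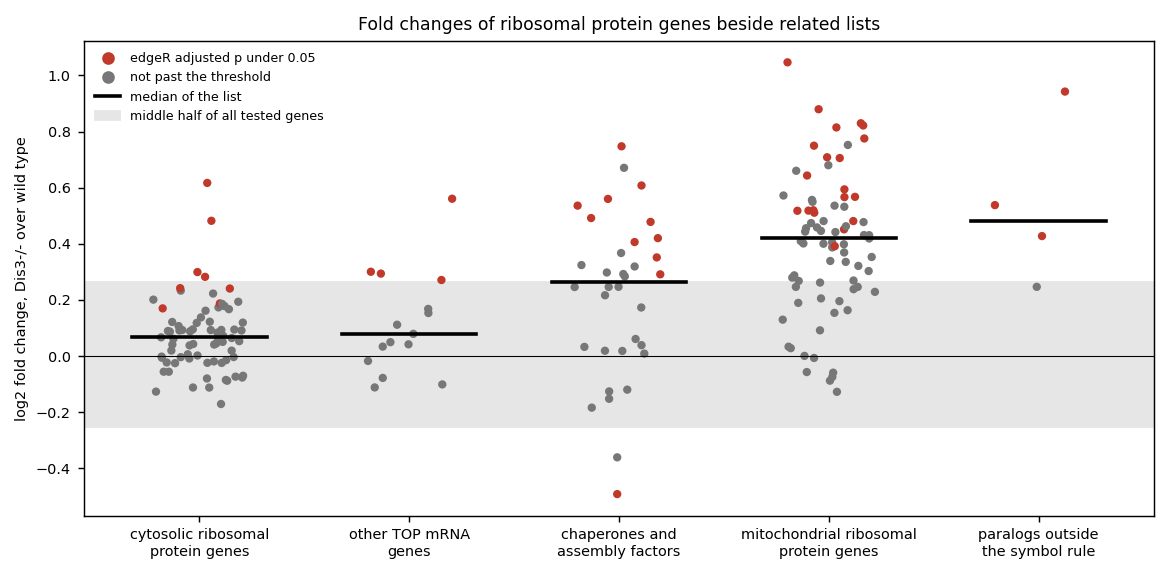
Log2 fold change, Dis3-/- over wild type, of each tested gene in 5 lists (red where edgeR's adjusted p was under 0.05), with the list's median as a bar and the middle part of all tested genes in grey (-0.25 to 0.27). The cytosolic ribosomal protein genes lie in a narrow band with a median of 0.0666, and the mitochondrial ribosomal protein genes have a median of 0.419.

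Tested members held 116 to 12460 expected counts in a library. Members with more reads per TPM tended to lower fold changes, with a Spearman correlation of -0.294 over the 74 members and -0.247 over the 12244 genes, given as a description since genes share libraries and length estimates.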

How the data were processed

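RamDA-seq libraries of 2 Dis3-/- and 2 wild-type samples were analysed. Per the submitters' processing notes the tools were Trim Galore 0.6.6, STAR 2.7.8a and RSEM 1.3.3, with genome build mm10; the annotation and the use of strand were not stated in the sources used here; reads of antisense neighbours therefore cannot be told apart. The deposited tables hold expected counts per gene, which are not whole for genes that share reads, and TPM, which the authors' RSEM scales by effective transcript length. Expected counts were rounded and tested with edgeR 4.0.16 (quasi-likelihood, TMM, R 4.3.3) on genes passing filterByExpr (minimum count 10, total 15), with Benjamini-Hochberg adjustment over all genes and a threshold of 0.05. Intervals are 95%. DESeq2 1.42.0 and limma 3.58.1 on log2(TPM + 1), for genes at 1 TPM or more in 2 libraries, were alternatives. The fit was tested on simulated data. The ribosomal protein genes and the lists were chosen with earlier results of these data known. Members were named if called, if among the 3 highest or lowest in fold change (of those not called) or in level, or for a known role; for each related list, up to 3 genes of smallest p were named. Values of some genes that the rule names are not reported here; counts and medians include them. Rps27, Rpl26 and the copies were named after their values were seen, and so were Rpl32 and the promoter windows shown. Copies were found by BLAST+ 2.17.0 in GENCODE M21 (at least 200 bases, 95% identity, 50% of the copy for summing). Positions and promoters are from RefSeq GRCm38.p6, which has the coordinates of mm10. The 2 libraries of a genotype differed beyond counting noise (chi-square per degree of freedom 3.51 in wild type and 4.11 in Dis3-/-). Depths were 6085367 to 6818535 expected counts.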

Additional observations from a re-analysis of the deposited data

How the results depend on the processing

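Against 8 ribosomal protein genes called, DESeq2 called 5, a fit with no filter on low counts 13 (10 higher, 3 lower), and limma 4, 3 and 0 on log2(TPM + 1), log2(TPM + 0.1) and unfiltered TPM; leaving out 1 library gave 4 to 14. The member median of 0.0666 became 0.0256 without scaling factors and -0.0381, -0.0381 and -0.0385 on the 3 TPM settings, and 0.0145 to 0.111 with 1 library left out, where the lone library is assumed to vary like the other genotype. The mitochondrial list went to 9 with DESeq2, 5 on unfiltered TPM and 10 to 17 with 1 library left out. The other TOP genes went to 1 on each TPM setting. The assembly factors (11 called in either direction) went to 7 with DESeq2, 2, 2 and 1 on TPM and 6 to 12 with 1 library left out. The share of all genes called was 16.1% on log2(TPM + 1), and the shares under the other settings are not given here. The cause was not tested. The replicate numbers do not pair the samples as far as the labels say; deviations of same-numbered libraries had a correlation of -0.0293, and with the replicate number as a block 5 members were called, where Rpl7, Rpl8 and Rps12 were no longer past the threshold (edgeR adjusted p = 0.0768, 0.0553 and 0.0927). DESeq2-type size factors kept every result named here on its side of the threshold. On TPM the signs of several small values turned: Rpl10 (-0.0381), Rpl23a (-0.0076), Rplp0 (-0.0637), Rps14 (-0.0624 and -0.0625, and -0.0029 without scaling), Rps6 (-0.0175), Rps3a1 (-0.0437) and Procr (-0.0689 and -0.0699). With 1 library left out the sign turned for Rpl22 (0.0283 without Dis3-/- replicate 2, 0.0451 without wild-type replicate 2; lowest -0.0914), Rpl5 (0.0020 without Dis3-/- replicate 1, 0.0126 without wild-type replicate 2; lowest -0.0211), Rpsa (0.0109 and 0.0034 for the same libraries; lowest -0.0334), Rps15a (0.0438 without Dis3-/- replicate 2; lowest -0.0852), Procr (-0.0587 without Dis3-/- replicate 2, -0.0029 without wild-type replicate 2; highest 0.141) and Slamf1 (0.0287 without Dis3-/- replicate 1, 0.293 without wild-type replicate 1; lowest -0.395). With 2 libraries each, no group was large enough for a test of outlying libraries.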
